A study of Mus musculus with 11 samples.

Results

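Among 11 clonal EStTA-PB-B lines of mouse embryonic stem cells, clones 24, 25 and 26 had the lowest mean log2 level over glycolysis and hypoxia response transcripts. Their transcriptomes were described against clones 16 to 23. The 3 clones are 3 of 11 libraries, and the reference holds the other 8. They were chosen by measurement: for each clone log2(CPM + 1) was averaged over 47 genes of glucose and lactate transport, glycolysis and the hypoxia response, where CPM is the depth-scaled read count after TMM scaling of the libraries. This score was 6.33 in clone 24, 6.16 in clone 25 and 6.28 in clone 26. Among clones 16 to 23 it was 6.40 in clone 21, the nearest one, and 6.80 in clone 17, the highest. Because this contrast chose the clones, all values that set clones 24 to 26 against clones 16 to 23 are descriptions and carry no p-value.

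All 11 clones were derived from EBRTcH3 cells, a mouse embryonic stem cell line that makes the tetracycline-controlled transactivator from its own ROSA26 promoter. The cells were transfected with barcoded piggyBac reporters driven by the mouse Pgk1 promoter (mPGK) together with a piggyBac transposase. Cells with high eGFP were sorted, single colonies were expanded, and each clone therefore carries its own set of reporter insertions. Culture was in BRL cell-conditioned medium with leukemia inhibitory factor, the MEK inhibitor PD0325901 and the GSK-3 inhibitor CHIR99021, alike in clones 24 to 26 and clones 16 to 23 per the labels. Each group member is a separate clone with 1 library, so the spread reported is that between clones and no spread within a clone was measured. The labels give no batch, and the 3 clones carry the highest 3 clone numbers, so a culture or library batch and the difference between the groups cannot be told apart.

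Glycolysis splits glucose into pyruvate, and lactate dehydrogenase turns pyruvate into lactate so that the pathway can go on without oxygen. Many of its enzymes, glucose transporters and the pyruvate dehydrogenase kinases are transcribed under hypoxia-inducible factor, a dimer of HIF-1 alpha or HIF-2 alpha with ARNT that binds the core RCGTG. Prolyl hydroxylases (EGLN proteins) mark the alpha subunits for destruction through VHL when oxygen is present, and 2 of them, Egln1 and Egln3, are themselves targets. Naive mouse embryonic stem cells use both glycolysis and mitochondrial respiration.

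The libraries held 13387129 to 15873887 counts in clones 24 to 26 and 10846005 to 16868500 counts in clones 16 to 23. Detected genes numbered 16069 to 16323 in clones 24 to 26 and 15910 to 16634 in clones 16 to 23. The level of 3 reads was 0.189 to 0.226 CPM in clones 24 to 26 and 0.173 to 0.284 CPM in clones 16 to 23. The stem cell label was checked on its defining markers, all of which overlapped between groups: Pou5f1 was at 840.2, 915 and 807 CPM in clones 24, 25 and 26, compared with 769 to 970.3 CPM in clones 16 to 23. Sox2 was at 798, 830.3 and 845 CPM in clones 24, 25 and 26, compared with 719 to 1062 CPM in clones 16 to 23. Nanog was at 679, 785 and 827 CPM, Esrrb at 1557, 1548 and 1428 CPM, and Zfp42 at 1203, 1039.9 and 796 CPM in clones 24, 25 and 26. Among clones 16 to 23 Nanog ranged from 621 to 936 CPM, Esrrb from 1030.4 to 1548 CPM and Zfp42 from 624 to 1435 CPM. Some libraries stood apart. In clone 16 the median gene of chromosome 3 was 0.56 above the median of the 11 clones on the log2(CPM + 1) scale, as was chromosome 19 in clone 17 by 0.54, chromosome 8 in clone 22 by 0.48, and chromosome 15 in clones 16 to 19 by 0.18 to 0.33. The shift was -0.18 for chromosome 14 in clone 21 and -0.13 for chromosome 4 in clone 19. In clones 24 to 26 no autosome or X chromosome had a median shifted by more than 0.03, while Y chromosome genes differed among them, as given below. A median over a whole chromosome can miss a change in part of it, and such changes were not examined in clones 24 to 26.

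Among the 12479 genes that averaged 1 CPM or more, 256 were lower in all 3 clones than in every one of clones 16 to 23, which is 2.05% of the genes, and 322 were higher in all 3, which is 2.58%. Hereafter a gene is called lower or higher in all 3 clones only where the groups do not overlap in this way, and sizes are differences of mean log2(CPM + 1), clones 24 to 26 minus clones 16 to 23. The rule of choice used this contrast, so nothing is read from these percentages. Without TMM scaling the split was 325 lower and 213 higher. Leaving out clone 24, 25 or 26 left a pair of clones to separate and gave 521, 523 or 526 lower and 676, 571 or 652 higher genes. The genes lower in all 3 clones had a median difference of -0.45, and 23 of them differed by at least 1. Those higher in all 3 had a median of 0.29, and 3 of them differed by at least 1, while the median over all genes was -0.006.

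**Figure D1:**
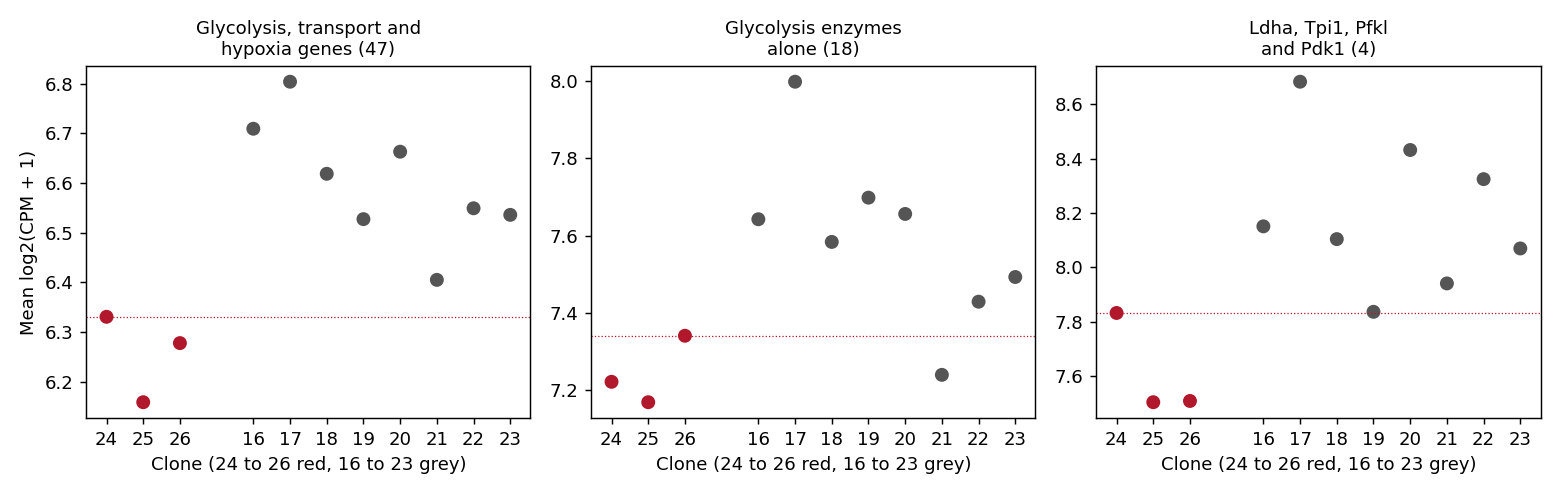
Mean log2(CPM + 1) per clone, 1 point per clone, for the 47 glycolysis, transport and hypoxia genes (left), the 18 glycolysis enzymes (middle) and Ldha, Tpi1, Pfkl and Pdk1 (right), with clones 24 to 26 in red, clones 16 to 23 in grey and a dotted line at the highest of clones 24 to 26. Clones 24 to 26 lie below all others in the left and right panels, but in the middle panel clone 21, at 7.24, lies below clone 26, at 7.34.

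The order of the clones depended on which genes made the score. Over the 18 glycolysis enzymes alone, clones 25, 24 and 26 were at 7.17, 7.22 and 7.34, against 7.24 in clone 21 and 7.999 in clone 17, so clone 21 ranked between clones 24 and 26. Over Ldha, Tpi1, Pfkl and Pdk1, clones 25, 26 and 24 were at 7.503, 7.51 and 7.83, against 7.84 in clone 19, the next clone. Clones 25 and 26 were thus apart from the rest in that score, while clone 24 was 7.832 and clone 19 was 7.836.

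The 300-base promoter windows of 5 genes that were lower in all 3 clones are shown because glycolysis and hypoxia genes define these clones, and the hypoxia-inducible factor core is short enough to be looked for directly. Sequences are those of RefSeq on GRCm38.p6, written 5′ to 3′ on the strand of the gene, covering 250 bases before the transcription start and 50 after it. Capitals mark every match to ACGTG or GCGTG on either strand (CACGT or CACGC on the printed strand), and CACGTG, the E-box that MYC and USF proteins bind, contains ACGTG on both strands. The windows of Bnip3, a mitophagy receptor, at chr7:138909457-138909756 (minus strand), P4ha2, a collagen prolyl hydroxylase, at chr11:54100674-54100973 (plus strand), and Higd1a, a small mitochondrial inner membrane protein, at chr9:121857747-121858046 (minus strand), held 5, 4 and 3 matches. Those of Pfkl, the liver-type phosphofructokinase, at chr10:78009758-78010057 (minus strand), and Tpi1, triosephosphate isomerase, at chr6:124814109-124814408 (minus strand), held 1 and 0.
Bnip3: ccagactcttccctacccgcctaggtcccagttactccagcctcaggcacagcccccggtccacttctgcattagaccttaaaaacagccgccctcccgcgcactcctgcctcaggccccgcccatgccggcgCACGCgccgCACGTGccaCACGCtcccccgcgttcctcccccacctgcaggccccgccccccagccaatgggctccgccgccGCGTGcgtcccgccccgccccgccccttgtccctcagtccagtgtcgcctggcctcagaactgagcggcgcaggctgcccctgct
P4ha2: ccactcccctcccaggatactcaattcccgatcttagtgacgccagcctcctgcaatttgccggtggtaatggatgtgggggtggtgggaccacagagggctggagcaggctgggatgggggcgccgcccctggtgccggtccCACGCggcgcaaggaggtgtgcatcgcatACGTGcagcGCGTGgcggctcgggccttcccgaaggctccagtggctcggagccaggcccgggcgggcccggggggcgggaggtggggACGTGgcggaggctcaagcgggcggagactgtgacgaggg
Higd1a: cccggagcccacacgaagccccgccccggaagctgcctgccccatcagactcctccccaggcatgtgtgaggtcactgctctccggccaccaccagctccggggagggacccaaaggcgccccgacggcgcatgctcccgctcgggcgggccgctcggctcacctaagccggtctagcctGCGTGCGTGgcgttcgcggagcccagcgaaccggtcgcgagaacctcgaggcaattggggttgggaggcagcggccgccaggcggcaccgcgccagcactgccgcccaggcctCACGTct
Pfkl: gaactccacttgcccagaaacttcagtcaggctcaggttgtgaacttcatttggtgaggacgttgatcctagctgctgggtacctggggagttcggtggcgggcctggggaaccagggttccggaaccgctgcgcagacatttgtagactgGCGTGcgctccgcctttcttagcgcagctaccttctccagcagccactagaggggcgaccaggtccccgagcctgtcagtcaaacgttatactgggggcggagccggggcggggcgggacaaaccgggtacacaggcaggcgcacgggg
Tpi1: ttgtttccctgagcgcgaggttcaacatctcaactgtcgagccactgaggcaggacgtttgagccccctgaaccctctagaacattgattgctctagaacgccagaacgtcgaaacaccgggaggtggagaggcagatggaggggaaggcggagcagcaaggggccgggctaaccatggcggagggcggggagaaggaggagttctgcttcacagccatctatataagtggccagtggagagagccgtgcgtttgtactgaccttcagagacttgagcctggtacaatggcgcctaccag

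Across the 8 genes of the glycolysis and hypoxia lists that were lower in all 3 clones, 7 had at least 1 window with the core, and 8 of their 10 windows held it (80%). Most promoters do: the core was in 62.1% of 12511 windows of all tested genes, in 62.6% of 262 windows of the genes lower in all 3 clones and in 63.5% of 326 windows of those higher in all 3. The E-box CACGTG was in 7.25% of windows of the lower genes, 12.3% of the higher genes and 10.1% of all genes. A match is a string of letters in a window and says nothing of binding.

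Transcripts of the glycolysis enzymes, which are part of the score, were lower in the 3 clones for 16 of 18 genes by their mean. The median difference was -0.34. Of the 18, 3 were lower and 0 higher in all 3 clones, beside 2.05% lower and 2.58% higher among all genes. The 3 were Pfkl, Tpi1 and Aldoa, which encode the committing kinase of the pathway, the enzyme that interconverts the triose phosphates and the main aldolase. Pfkl was at 191, 153 and 145 CPM in clones 24, 25 and 26, compared with a lowest of 222, a median of 281 and a highest of 394 CPM in clones 16 to 23. The difference was -0.77, with means of 163 ± 24.7 CPM (SD, n = 3) in clones 24 to 26 and 280.0 ± 53.3 CPM (SD, n = 8) in clones 16 to 23. No value of clones 24 to 26 reached the lowest of the other 8, which was that of clone 21.

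Tpi1 was at 206, 166 and 199 CPM in clones 24, 25 and 26, compared with a lowest of 229, a median of 321 and a highest of 385 CPM in clones 16 to 23, a difference of -0.69. Clones 21 and 23 came closest to the 3. Aldoa was at 1393, 1259.9 and 1441 CPM in clones 24, 25 and 26, compared with a lowest of 1585, a median of 1883 and a highest of 2677 CPM in clones 16 to 23, a difference of -0.51. The highest value was that of clone 17 for Pfkl, Tpi1 and Aldoa.

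Ldha, the muscle-type lactate dehydrogenase subunit, overlapped. It was at 342, 233 and 341 CPM in clones 24, 25 and 26, compared with a lowest of 311, a median of 463 and a highest of 686 CPM in clones 16 to 23, a difference of -0.57. Clone 21, at 311 CPM, lay below clones 24 and 26. The largest differences among the other enzymes that overlapped were those of Pfkm (-0.70), the muscle-type phosphofructokinase, Aldoc (-0.62), a second aldolase, Eno3 (-0.58), the muscle-type enolase, and Hk1 (-0.46), a hexokinase. Pfkm lies on chromosome 15, which stood higher in clones 16 to 19, and its part in the difference was not tested. Clones 24, 25 and 26 were at 42.2, 61.3 and 63.4 CPM for Pfkm. Clones 16 to 19 were at 101 to 187 CPM and clones 20 to 23 at 49.8 to 76.6 CPM. Pgam1 differed by -0.35, Gpi1 by -0.33, Pgk1 by -0.31, Pkm by -0.27, Hk2 by -0.26, Gapdh by -0.13, Eno1 by -0.11 and Pfkp by -0.03. Ldhb, the heart-type lactate dehydrogenase subunit, at 0.09, and Eno2, the neuronal enolase, at 0.29, were the 2 enzymes with a higher mean in clones 24 to 26. Pgk1 is the gene whose promoter drives the reporters, and it was at 316, 233 and 288 CPM in clones 24, 25 and 26, compared with 274 to 414 CPM in clones 16 to 23. Several of these genes, Gapdh among them, have near-identical processed copies in the genome, and the counting of reads with several matches is not stated in the labels or notes, so their levels are uncertain.

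**Figure D2:**
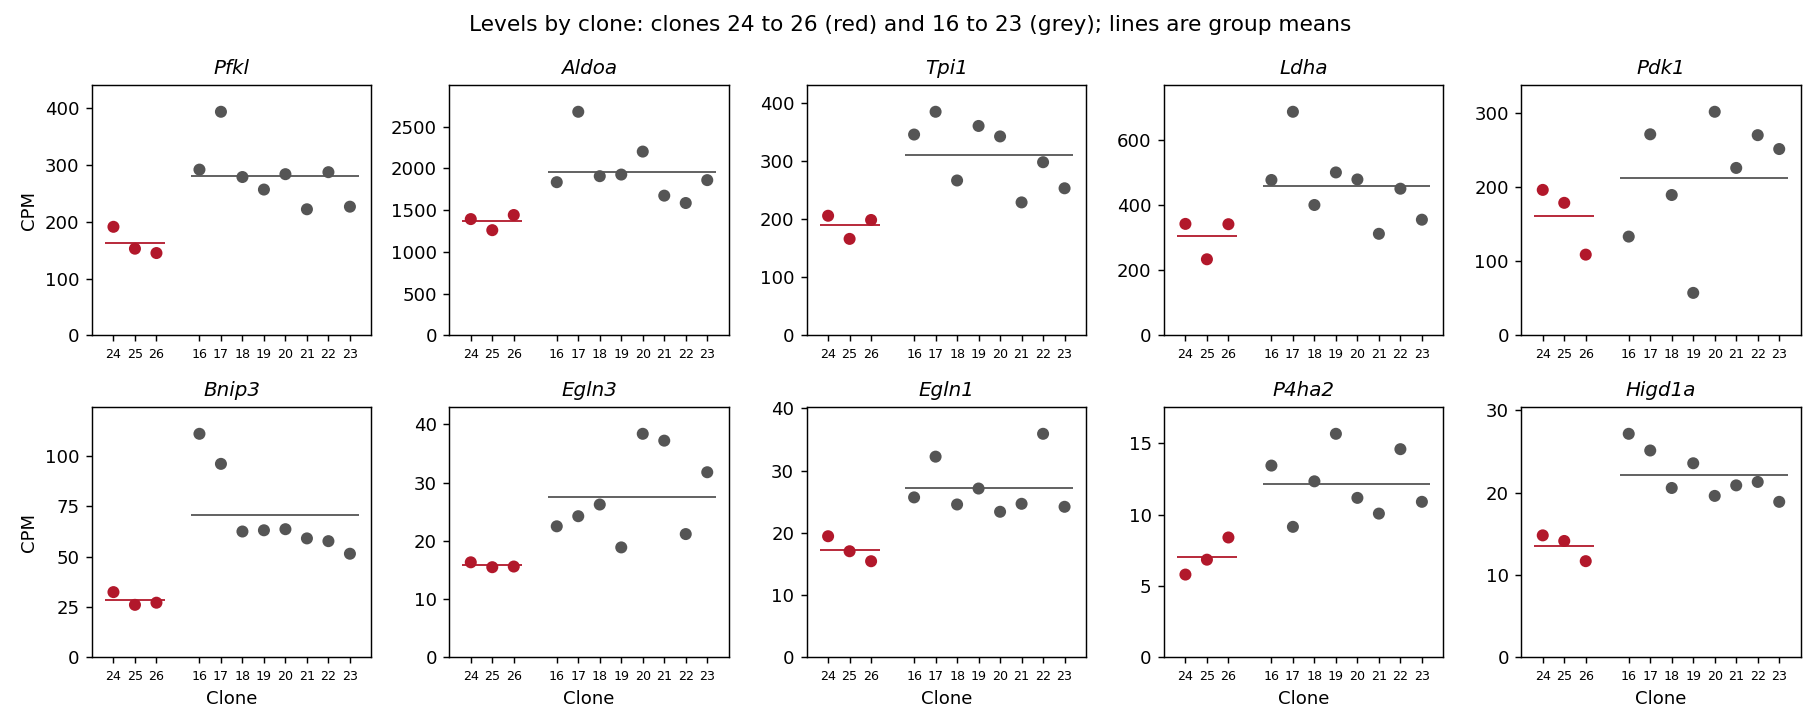
CPM per clone, 1 point per clone with a line at each group's mean, for the enzymes Pfkl, Aldoa, Tpi1 and Ldha, the kinase Pdk1 and the hypoxia targets Bnip3, Egln3, Egln1, P4ha2 and Higd1a, with clones 24 to 26 in red on the left and clones 16 to 23 in grey on the right of each panel. The groups do not overlap in 8 panels, whereas Ldha of clone 21, at 311 CPM, and Pdk1 of clone 19, at 57.4 CPM, fall among or below clones 24 to 26.

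The 4 transporters overlapped between groups. Slc2a1, the basal glucose transporter, was at 262, 251 and 231 CPM in clones 24, 25 and 26, compared with 229.9 to 385 CPM in clones 16 to 23, a difference of -0.30. Slc2a3, the high-affinity glucose transporter and the most abundant of the 4 in reads, was at 2724, 3157 and 2797 CPM, against 2140.4 to 3834 CPM in clones 16 to 23, a difference of 0.12. The lactate exporter Slc16a3 was at 38.3, 27.5 and 24.3 CPM, against 35.9 to 66.3 CPM in clones 16 to 23, and Slc16a1, a second monocarboxylate carrier, at 102, 93.0 and 105 CPM, against 65.5 to 114 CPM. Their differences had opposite signs, -0.72 for Slc16a3 and 0.33 for Slc16a1.

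The 25 tested hypoxia response targets are part of the score that chose the clones, and their median difference was -0.37. Of them 5 were lower and 1 was higher in all 3 clones, beside 2.05% lower and 2.58% higher among all genes. The median was -0.48 when clone 19 was left out. Per clone the median of the list against the mean of clones 16 to 23 was -0.32, -0.50 and -0.47 in clones 24, 25 and 26, compared with -0.11 to 0.22 in clones 16 to 23, so the groups did not overlap on it. For the glycolysis enzymes the same median was -0.33, -0.43 and -0.29 in clones 24, 25 and 26, and in clones 16 to 23 it reached -0.32, in clone 21.

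Bnip3 had the largest difference of these targets among those lower in all 3 clones, -1.23. It was at 32.4, 26.1 and 27.1 CPM in clones 24, 25 and 26, compared with a lowest of 51.4, a median of 62.8 and a highest of 111 CPM in clones 16 to 23. The 3 clones lay close together, and clones 16 and 17 were the high ones. Egln3, an oxygen-sensing prolyl hydroxylase, was at 16.3, 15.5 and 15.6 CPM in clones 24, 25 and 26, compared with a lowest of 18.9, a median of 25.2 and a highest of 38.4 CPM in clones 16 to 23, a difference of -0.72. Egln1, the main oxygen-sensing prolyl hydroxylase, was at 19.5, 17.1 and 15.5 CPM in clones 24, 25 and 26, compared with a lowest of 23.4, a median of 25.2 and a highest of 35.9 CPM in clones 16 to 23, a difference of -0.61. Its highest value was that of clone 22, the clone in which chromosome 8, where Egln1 lies, stood higher.

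P4ha2 was at 5.80, 6.84 and 8.39 CPM in clones 24, 25 and 26, compared with a lowest of 9.14, a median of 11.7 and a highest of 15.6 CPM in clones 16 to 23, a difference of -0.71. Higd1a was at 14.8, 14.1 and 11.7 CPM in clones 24, 25 and 26, compared with a lowest of 18.9, a median of 21.1 and a highest of 27.1 CPM in clones 16 to 23, a difference of -0.67. Both groups were compact for Higd1a. Ndufa4l2, which is known to be induced under hypoxia and to take the place of a respiratory chain subunit, was not in the list and came up among the genes with the largest differences: it was at 6.18, 4.36 and 4.90 CPM in clones 24, 25 and 26, compared with a lowest of 6.58, a median of 14.1 and a highest of 19.22 CPM in clones 16 to 23. The difference was -1.24, and clone 19 was the low one of the 8.

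Other targets did not separate, and 1 was higher. Kdm3a, a histone H3 lysine demethylase, was at 210.0, 214 and 226 CPM in clones 24, 25 and 26, compared with a lowest of 147, a median of 178 and a highest of 192 CPM in clones 16 to 23, a difference of 0.31. Vegfa, the vascular growth factor, was at 111, 97.9 and 71.4 CPM in clones 24, 25 and 26, compared with 92.7 to 203 CPM in clones 16 to 23 (-0.59), Ddit4, an mTORC1 inhibitor, was at 160.3, 58.2 and 86.9 CPM, against 87.6 to 335 CPM (-0.76), and Ndrg1 was at 21.8, 16.9 and 27.7 CPM, against 24.2 to 50.6 CPM (-0.55). Ak4, a mitochondrial adenylate kinase, was at 96.9, 31.8 and 78.1 CPM in clones 24, 25 and 26, compared with 72.5 to 313 CPM in clones 16 to 23 (-0.95). Bnip3l, the close relative of Bnip3, was at 77.7, 73.7 and 77.4 CPM, against 37.1 to 86.5 CPM (0.09), and Bhlhe40 at 40.7, 52.8 and 51.6 CPM, against 40.6 to 55.6 CPM (0.01). Pdk1, the kinase that inhibits pyruvate dehydrogenase, was at 196, 179 and 109 CPM, against a lowest of 57.4, a median of 239 and a highest of 302 CPM in clones 16 to 23 (-0.29). Clones 19, 16 and 18, at 57.4, 133 and 189.6 CPM, lay within or below the range of clones 24 to 26 for Pdk1.

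**Figure D3:**
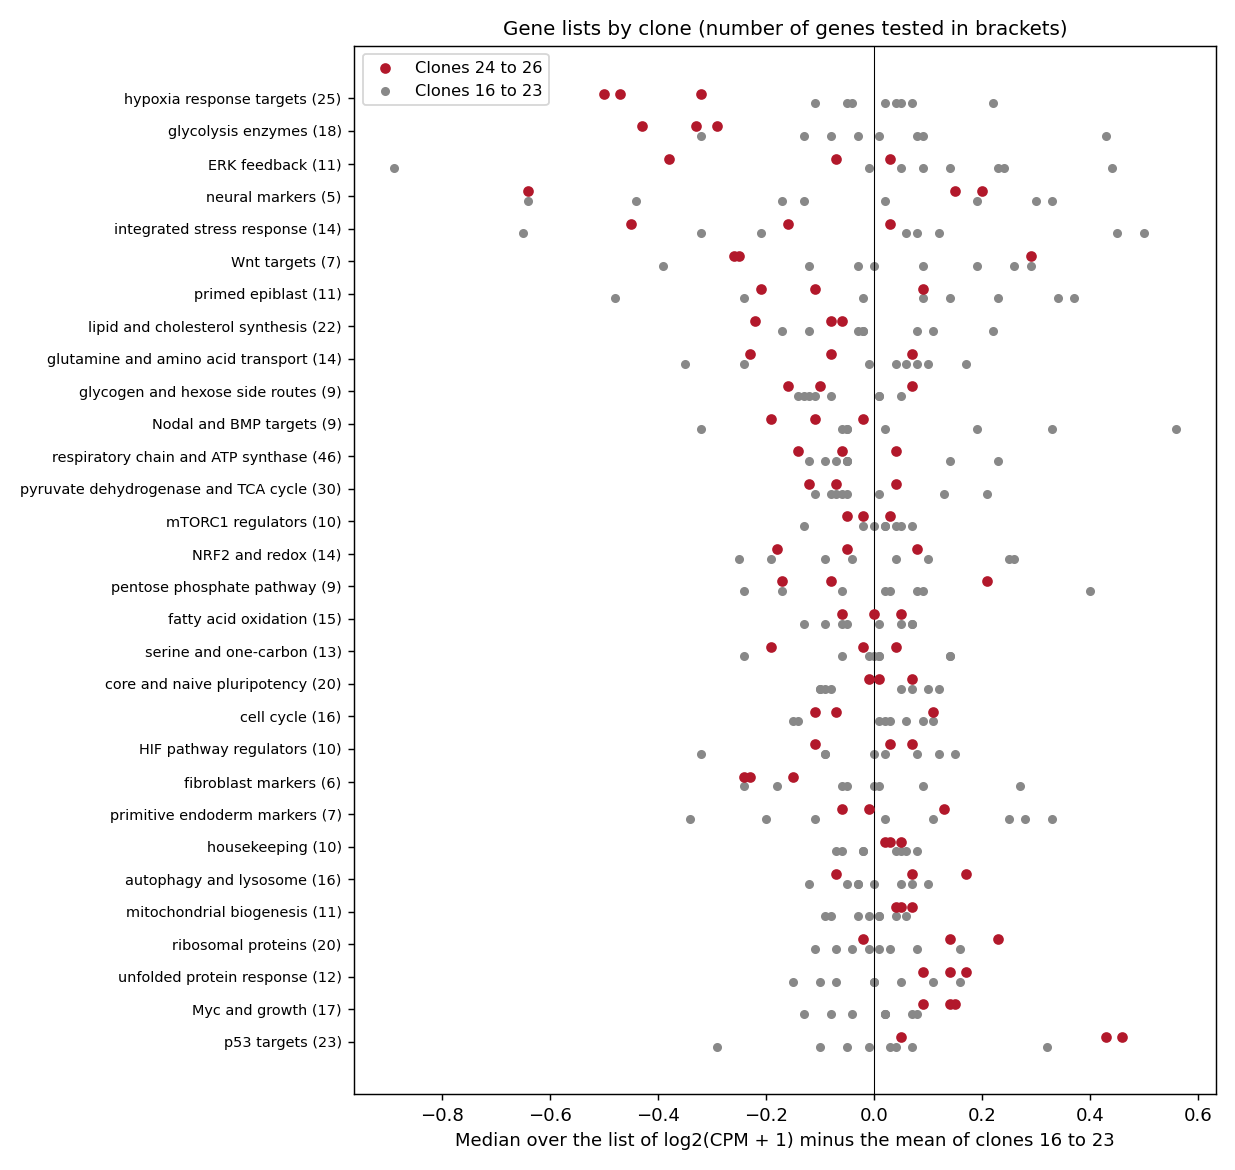
Median over each gene list, per clone, of log2(CPM + 1) minus the mean of clones 16 to 23, with clones 24 to 26 in red and clones 16 to 23 in grey, 1 point per clone and the number of tested genes in brackets. Of the lists drawn, the hypoxia response targets stand apart at the low end, at -0.32 to -0.50 in clones 24 to 26, and Myc and growth genes at the high end, at 0.09 to 0.15 in clones 24 to 26 against -0.13 to 0.08 in clones 16 to 23.

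Of 10 genes that regulate hypoxia-inducible factor, 0 were lower or higher in all 3 clones, with a median difference of 0.01. For a list of this size that is near the 2.05% lower and 2.58% higher of all genes. Hif1a, the oxygen-labile subunit, was at 281, 280.4 and 231 CPM in clones 24, 25 and 26, compared with a lowest of 175, a median of 217 and a highest of 248 CPM in clones 16 to 23, a difference of 0.30. Its clone 24 and 25 values exceeded all 8 and clone 26 did not. Arnt, the partner subunit, differed by 0.02, Vhl by -0.10 and Epas1, which encodes HIF-2 alpha, by -0.49, at 61.4, 43.3 and 50.4 CPM in clones 24, 25 and 26 compared with 36.2 to 102 CPM in clones 16 to 23. Protein levels were not measured. Myc was at 10.4, 10.2 and 5.39 CPM in clones 24, 25 and 26, compared with a lowest of 8.37, a median of 19.6 and a highest of 27.4 CPM in clones 16 to 23, a difference of -0.99 with an overlap through clone 19. Mycn differed by -0.40, Trp53 by 0.11 and Tigar, a bisphosphatase that opposes glycolysis, by -0.06, all overlapping.

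The Myc and growth list had a median of 0.18. Of its 17 genes tested, 1 was higher in all 3 clones and 0 were lower, beside 2.58% and 2.05% of all genes. That one was Max, the dimer partner of MYC, at 87.5, 101 and 104 CPM in clones 24, 25 and 26, compared with a lowest of 64.4, a median of 74.7 and a highest of 83.7 CPM in clones 16 to 23, a difference of 0.41. Hexim1, an inhibitor of the elongation kinase P-TEFb, was at 130.3, 143 and 146 CPM in clones 24, 25 and 26, compared with a lowest of 61.8, a median of 100.5 and a highest of 111 CPM in clones 16 to 23, a difference of 0.58. Hexim1 was singled out after its values were seen.

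The counts of the mitochondrial lists stand beside 2.05% lower and 2.58% higher among all genes. Of 30 genes of the pyruvate dehydrogenase complex and the TCA cycle, 2 were lower in all 3 clones and 0 were higher, with a median of -0.05. Pdk3, a second pyruvate dehydrogenase kinase, was at 20.2, 18.1 and 19.24 CPM in clones 24, 25 and 26, compared with a lowest of 21.8, a median of 24.99 and a highest of 34.2 CPM in clones 16 to 23 (-0.39). Sdhc, a membrane subunit of succinate dehydrogenase, was at 74.4, 71.3 and 70.0 CPM, against 77.2 to 89.0 CPM in clones 16 to 23 (-0.20). Of 46 respiratory chain and ATP synthase genes, 0 were lower and 0 higher in all 3 clones, with a median of -0.06. Mitochondrial biogenesis (11 genes), pentose phosphate (9), serine and one-carbon (13), amino acid transport (14), fatty acid oxidation (15) and lipid synthesis (22) also had 0 members apart in either direction, with medians of -0.10 to 0.06.

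Some single genes of energy metabolism outside the lists separated and were singled out after their values were seen. Plin2, which coats lipid droplets, was at 45.003, 74.6 and 59.6 CPM in clones 24, 25 and 26, compared with a lowest of 74.8, a median of 110 and a highest of 162 CPM in clones 16 to 23, a difference of -0.94. Clone 25 lay just under the lowest of the 8, clone 22. Cbs, which condenses homocysteine with serine, was at 22.3, 23.2 and 18.6 CPM, against 28.1 to 44.1 CPM in clones 16 to 23 (-0.66), and Pycr1, the last enzyme of proline synthesis, at 45.5, 46.5 and 44.3 CPM, against 50.5 to 121 CPM (-0.61). Cox17, a copper chaperone for cytochrome oxidase, was at 33.5, 31.2 and 30.2 CPM, against 35.5 to 51.2 CPM (-0.36).

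Higher in all 3 clones were Ak1, the cytosolic adenylate kinase, at 82.6, 80.1 and 118 CPM in clones 24, 25 and 26, compared with a lowest of 44.2, a median of 54.4 and a highest of 76.4 CPM in clones 16 to 23 (0.69). Ucp2, a mitochondrial carrier, was at 264, 252 and 237 CPM, against 157 to 231 CPM in clones 16 to 23 (0.42). Prkaa1, a catalytic subunit of the energy sensor AMPK, was at 61.2, 65.9 and 69.3 CPM, against 45.3 to 54.1 CPM (0.37). Ccng2, a non-canonical cyclin, Arrdc3, an arrestin-domain protein, Klhl24, a ubiquitin ligase adaptor, and Tob1, an antiproliferative protein, differed by 0.58, 0.56, 0.46 and 0.48. All of these 7 were singled out after their values were seen.

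Taking genes that averaged 5 CPM or more, the 12 lower ones with the largest differences were Pou2f3, Tgm2, Steap3, Ntrk2, Hormad2, Cited4, Rftn1, Cald1, Kank4, Ndufa4l2, Bnip3 and Gsdmd, at -2.06 to -1.22. Pou2f3, a POU domain transcription factor, was at 4.22, 1.95 and 2.66 CPM in clones 24, 25 and 26, compared with a lowest of 7.40, a median of 12.9 and a highest of 52.0 CPM in clones 16 to 23. Tgm2, a transglutaminase that crosslinks proteins, was at 3.53, 6.46 and 1.89 CPM, against a lowest of 7.77, a median of 10.9 and a highest of 53.1 CPM in clones 16 to 23 (-1.78). For both genes clones 24 to 26 lay under all 8. Clone 17 was far above the other 7 for Pou2f3, and clones 19 and 17, at 53.1 and 34.5 CPM, were the high ones for Tgm2.

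Steap3, a ferrireductase of the iron uptake pathway, was at 3.84, 4.81 and 6.58 CPM in clones 24, 25 and 26, compared with 6.81 to 39.7 CPM in clones 16 to 23 (-1.63). Ntrk2, the receptor of brain-derived neurotrophic factor, was at 2.21, 6.31 and 2.31 CPM, against 6.45 to 31.8 CPM (-1.57). Cited4, a transcriptional coregulator that binds CBP and p300, was at 1.39, 1.13 and 0.909 CPM, against 1.42 to 27.1 CPM (-1.51). In these 3 genes the gap to the nearest of clones 16 to 23 was small beside the spread among those 8. Rftn1, a lipid raft protein, differed by -1.45, and Gsdmd, the pore-forming protein of pyroptosis, by -1.22. Kank4, a cytoskeletal scaffold, differed by -1.25, and by -0.80 without clone 26, which at 4.48 CPM was the lowest of the 3.

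**Figure D4:**
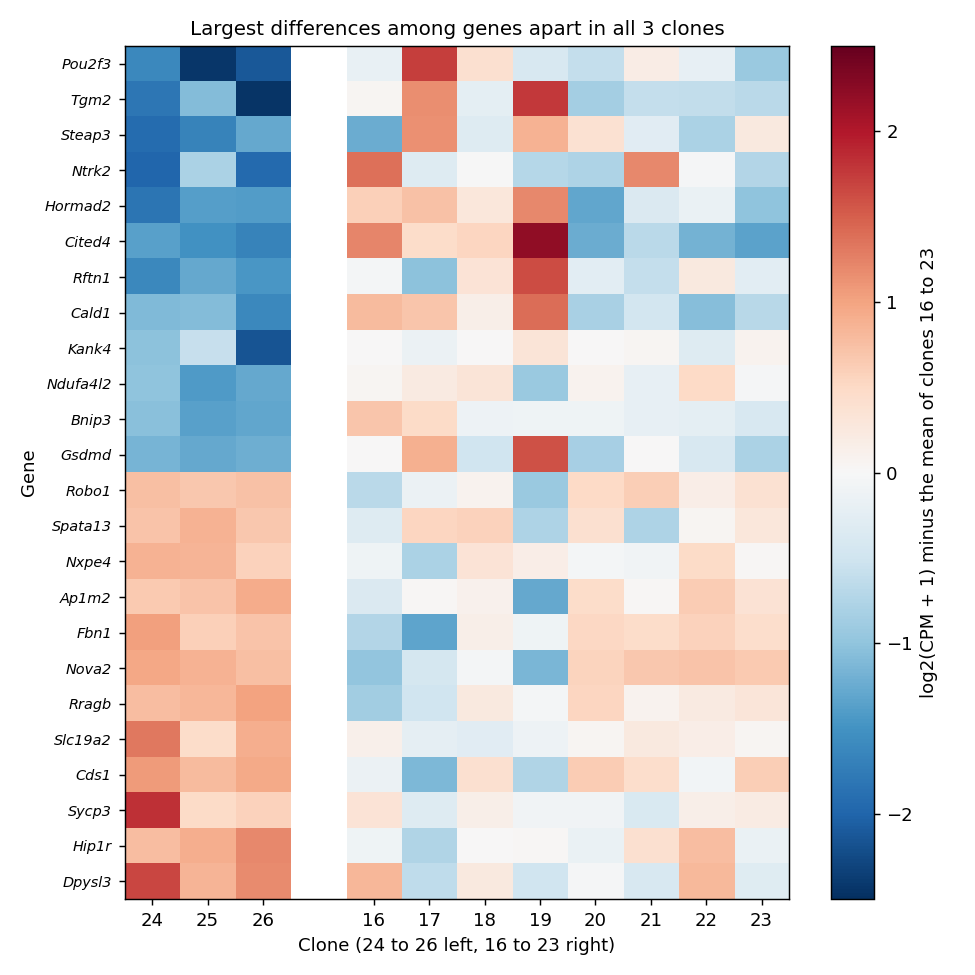
log2(CPM + 1) minus the mean of clones 16 to 23, by colour, for the 12 genes lower in all 3 clones (top) and the 12 higher in all 3 clones (bottom) with the largest differences, with clones 24 to 26 in the left columns and clones 16 to 23 in the right ones. Clones 24 to 26 are blue for each lower gene and red for each higher gene, while clones 17 and 19 hold several of the strongest colours among clones 16 to 23.

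Several lower genes belong to the actin cytoskeleton and to known YAP or SRF targets. The list was drawn up after the values were seen, so its counts are not independent of them: 7 of 25 tested members were lower in all 3 clones, 0 were higher, and the median was -0.40, beside 2.05% lower and 2.58% higher among all genes. Cald1, an actin-binding protein, was at 49.8, 49.8 and 34.3 CPM in clones 24, 25 and 26, compared with a lowest of 50.9, a median of 99.0 and a highest of 283 CPM in clones 16 to 23 (-1.27). Anxa2, a membrane and actin linker, was at 11.8, 11.7 and 10.3 CPM, against 14.1 to 64.5 CPM in clones 16 to 23 (-1.21). Ccn1, a matricellular protein, was at 4.41, 5.79 and 3.85 CPM, against 6.45 to 31.1 CPM (-1.19). Lmna, which encodes lamins A and C, and Myl12b, a myosin light chain, differed by -0.50 and -0.40. The per-clone median of this list was -0.30, -0.34 and -0.42 in clones 24, 25 and 26, and in clones 16 to 23 it reached -0.28, in clone 21. Actb itself was at 1075, 918 and 1011 CPM in clones 24, 25 and 26, compared with 742 to 1428 CPM in clones 16 to 23 (0.02).

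Meiosis and germline genes, a list also drawn up after the values were seen, had 6 of 27 tested members lower and 1 higher in all 3 clones, beside the same 2.05% and 2.58% of all genes, with a median of -0.33. Hormad1, a meiotic chromosome axis protein, was at 8.45, 10.7 and 9.30 CPM in clones 24, 25 and 26, compared with a lowest of 12.2, a median of 22.9 and a highest of 29.6 CPM in clones 16 to 23 (-1.06). Its relative Hormad2 was at 1.76, 2.78 and 2.73 CPM, against 2.98 to 21.7 CPM (-1.53). Sycp3, a component of the synaptonemal complex, was the higher one, at 27.8, 10.3 and 11.0 CPM, against 5.24 to 9.27 CPM in clones 16 to 23, and its difference of 0.96 was 0.53 without clone 24.

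The 12 higher genes with the largest differences were Dpysl3, Hip1r, Sycp3, Cds1, Slc19a2, Rragb, Nova2, Fbn1, Ap1m2, Nxpe4, Spata13 and Robo1, at 1.23 to 0.72. Dpysl3, a regulator of the neuronal cytoskeleton, was at 24.3, 13.2 and 16.8 CPM in clones 24, 25 and 26, compared with a lowest of 4.05, a median of 6.08 and a highest of 13.0 CPM in clones 16 to 23. Hip1r, an adaptor of clathrin and actin, was at 20.7, 23.002 and 28.5 CPM, against a lowest of 6.60, a median of 11.3 and a highest of 20.6 CPM (0.96). Clones 16 and 22 for Dpysl3, and clone 22 for Hip1r, came close to the 3 clones.

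Rragb, a Rag GTPase that brings mTORC1 to the lysosome, was at 50.7, 52.9 and 59.9 CPM in clones 24, 25 and 26, compared with 15.6 to 43.0 CPM in clones 16 to 23 (0.87). Slc19a2, a thiamine transporter, was at 124, 67.9 and 93.4 CPM, against 40.1 to 58.1 CPM (0.90). Cds1, which makes CDP-diacylglycerol, was at 22.8, 18.9 and 21.2 CPM, against 4.29 to 16.7 CPM (0.94). Robo1, the Slit receptor, was at 92.7, 87.9 and 91.0 CPM, against 28.2 to 83.9 CPM (0.72), so the 3 clones were alike and the 8 were spread.

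Dhx9, an RNA helicase, was well separated, at 623, 585 and 640.3 CPM in clones 24, 25 and 26, compared with a lowest of 371, a median of 395 and a highest of 438 CPM in clones 16 to 23. Its difference was 0.61, with means of 616 ± 28.0 CPM (SD, n = 3) in clones 24 to 26 and 403 ± 21.4 CPM (SD, n = 8) in clones 16 to 23. It was chosen after its values were seen, as were 3 lists of RNA and secretory genes that had members higher in all 3 clones, where 2.58% of all genes were. Of 17 CLK kinase and SR splicing genes, 5 were higher and 0 lower, with a median of 0.12, among them Clk1, which phosphorylates SR proteins, at 195, 206 and 182 CPM against 123 to 176 CPM in clones 16 to 23 (0.40). Of 20 hnRNP genes, 6 were higher and 0 lower, with a median of 0.06, among them Hnrnpr at 164, 163 and 156 CPM against 74.0 to 153 CPM in clones 16 to 23 (0.33). Of 19 genes of the endoplasmic reticulum translocon and glycosylation, 5 were higher and 0 lower, with a median of 0.10, among them Canx, the chaperone calnexin, at 997, 1017 and 1178 CPM against 636 to 888 CPM in clones 16 to 23 (0.36). Rack1, a ribosomal scaffold protein, was at 3338, 3601 and 3605 CPM, against 2534 to 3195 CPM in clones 16 to 23 (0.30).

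Lists of stem cell state and signalling had 0 or 1 member apart, which for lists of this size is near the 2.05% lower and 2.58% higher of all genes. Klf4, a naive pluripotency factor, was at 599, 505 and 467 CPM in clones 24, 25 and 26, compared with a lowest of 240.0, a median of 420.4 and a highest of 460.5 CPM in clones 16 to 23 (0.40), and was the 1 of 20 pluripotency genes apart, with 0 lower. Spry1, which dampens receptor tyrosine kinase signalling, was at 20.9, 24.5 and 21.2 CPM, against 8.26 to 18.7 CPM (0.43), and was the 1 of 11 ERK feedback genes apart, in a list whose median was -0.25. Sqstm1, the autophagy receptor p62, was at 436, 399 and 480 CPM, against 271 to 398 CPM (0.42), the 1 of 16 autophagy and lysosome genes apart. The 16 cell cycle and 10 housekeeping genes had 0 apart in either direction, with medians of -0.01 and 0.03.

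Of the p53 targets, 0 of 23 were lower or higher in all 3 clones, where 2.05% and 2.58% of all genes were. The list median was 0.30, and 0.53 without clone 25. Per clone it was 0.46, 0.05 and 0.43 in clones 24, 25 and 26, compared with -0.29 to 0.32 in clones 16 to 23. Ccng1, a p53-induced cyclin, was at 403, 254 and 427 CPM in clones 24, 25 and 26, compared with 144 to 290 CPM in clones 16 to 23 (0.80). Clone 25 lay among clones 16 to 23 and clones 24 and 26 above them.

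Markers of other cell types overlapped between groups, and in bulk RNA fewer cells of a type and less RNA per cell cannot be told apart. Sums were taken over the tested markers only, those that averaged 1 CPM or more. The summed level of 7 tested primitive endoderm markers was 388 to 528 CPM in clones 24 to 26 and 387 to 728 CPM in clones 16 to 23. In clones 24 to 26, 4 tested trophoblast markers summed to 68.8 to 83.0 CPM, 5 neural markers to 61.9 to 99.2 CPM and 2 mesoderm markers to 1.20 to 2.52 CPM. In clones 16 to 23 the same sums were 63.4 to 127 CPM, 56.8 to 195 CPM and 1.51 to 4.10 CPM. The 6 tested fibroblast markers, most of whose reads came from Fn1, summed to 4657 to 7524 CPM in clones 24 to 26 and 4039 to 6370 CPM in clones 16 to 23. The 4 tested two-cell-like markers summed to 6.24 to 22.7 CPM in clones 24 to 26 and 1.43 to 18.6 CPM in clones 16 to 23. Of these lists 0 members were lower or higher in all 3 clones, where 2.05% and 2.58% of all genes were. Cdx2, Gata3, Elf5 and Hand1 of the trophoblast list were under a mean of 1 CPM. Of the 4 trophoblast markers tested, Eomes, Krt8 and Krt18 differed by -0.87, -0.71 and -0.53 and Tfap2c by 0.18, a median of -0.62. Per clone the median of that list was -0.43, -0.35 and -0.62 in clones 24, 25 and 26, and -0.46 to 0.63 in clones 16 to 23. The 4 tested two-cell-like markers had a higher mean in clones 24 to 26, with a median of 0.64, and a per-clone median of -0.10, 0.44 and 1.45 in clones 24, 25 and 26 and of -0.93 to 1.07 in clones 16 to 23. The part of these cell types in the other differences was not tested.

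The 3 clones were alike on the genes that set them apart and differed on others. Of 10354 genes that averaged 5 CPM or more, 622 (6.01%) differed by at least 2-fold between the highest and the lowest of the 3, but of the called genes of that level it was 4 of 213 lower genes (1.88%) and 1 of 292 higher genes (0.342%). Agreement of the 3 is built into the call, so these shares are a description. Clone 26 was the most extreme of the 3 in 111 of the 256 lower genes, clone 24 in 93 and clone 25 in 52. Outside the calls, Klhl13, a ubiquitin ligase adaptor on the X chromosome, was at 40.1, 174 and 435 CPM in clones 24, 25 and 26, compared with 82.2 to 187 CPM in clones 16 to 23. Pmel, a melanosome protein, was at 18.03, 65.5 and 172 CPM, against 17.95 to 28.7 CPM. Ddx3y of the Y chromosome was at 0.0630, 203 and 59.0 CPM, against 109 to 226 CPM in clones 16 to 23. Eif2s3y, also of the Y chromosome, was at 0.0630, 135 and 18.1 CPM, against 64.0 to 121 CPM, and Uty at 0.504, 83.4 and 16.9 CPM, against 51.4 to 86.3 CPM. For these 3 genes clones 24 and 26 both lay below clones 16 to 23. Clone 24 was below the level of 3 reads for Ddx3y and Eif2s3y. For Uba1y and Zfy1 of the Y chromosome, clone 24 lay below clones 16 to 23 and clone 26 within their range.

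Base composition and transcript length moved with the direction of the difference, and their part in it was not tested. Transcripts lower in all 3 clones had a median GC content of 52.9% and a median length of 2730 bases, those higher in all 3 had 46.4% and 3988 bases, and all tested genes had 50.4% and 3194 bases. In the lowest decile of GC content the median gene was 0.07, 0.07 and 0.01 above the mean of clones 16 to 23 in clones 24, 25 and 26, compared with -0.08 in clone 17 and 0.05 in clones 16 and 23, the ends of clones 16 to 23. In the ninth decile it was -0.04, -0.06 and -0.03 in clones 24, 25 and 26, compared with 0.08 in clone 17 and -0.05 in clone 21, the ends of clones 16 to 23. In the highest decile it was -0.01, -0.06 and -0.05 in clones 24, 25 and 26. Clone 16, at -0.08, was below them there, and clones 17 and 19, at 0.05, were the upper end. With the trend in GC content and length removed from each library, 249 genes were lower, of which 203 were among the 256, and 279 were higher, of which 203 were among the 322. Chromosomes 3, 8, 15 and 19 had a median shift of at least 0.2 in a clone. Without these 4 chromosomes 202 genes were lower and 311 higher, and chromosomes 4, 14 and 17 stayed in. Chromosomes 3, 8 and 19, each shifted up in 1 of clones 16 to 23, held 1 of 566, 2 of 669 and 1 of 423 genes higher in all 3 clones (0.177%, 0.299% and 0.236%). Chromosomes 15 and 17 held the largest shares of lower genes, 17 of 487 (3.49%) and 23 of 607 (3.79%).

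**Figure D5:**
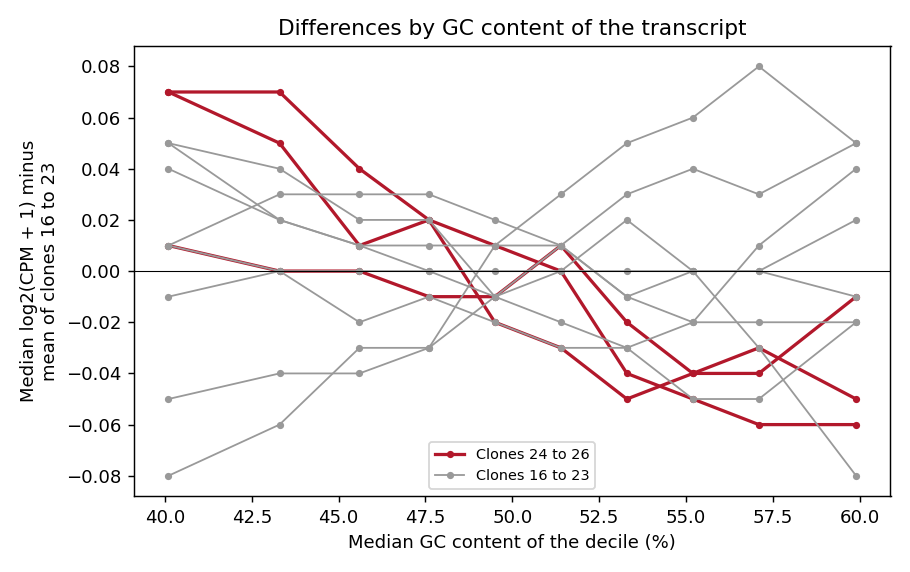
Median over the genes of each decile of log2(CPM + 1) minus the mean of clones 16 to 23, against the median GC content of the decile's transcripts in percent, with 1 line per clone, clones 24 to 26 in red and clones 16 to 23 in grey. Clones 24 and 25 run from 0.07 at the lowest GC content to below 0 in the upper deciles, clone 26 stays near 0 until the upper deciles, and single clones among 16 to 23 run either way by up to 0.08.

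Whether genes follow the glycolysis score without clones 24 to 26 was tested within clones 16 to 23, with edgeR's quasi-likelihood test of the slope of each gene on the score and Benjamini-Hochberg adjustment. The 8 clones are also the reference of the description above, so the values stand side by side and are not independent. Of 12432 genes, 0 passed an adjusted p of 0.05, while 765 (6.15%) had an unadjusted p under 0.05, and DESeq2 called 24, of which 10 went with the score and 14 against it. With glycolysis enzymes alone as the score, edgeR called 1 gene, and it also called 1 without clone 19 and 1 without clone 22. The count with an unadjusted p under 0.05 by edgeR depended on the setting. It was 1919 with glycolysis enzymes alone as the score, 1450 with Ldha alone and 1640 without clone 19. Without any other one of clones 16 to 23 it was 562 to 904. The slope is the log2 change per unit of score, and the 8 clones span from 6.40 to 6.80.

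Members of the score enter it, and their slopes are given as values. Bnip3 had a slope of 2.401 ± 0.71 (SE, n = 8 clones), Pfkl 1.86 ± 0.40, Ldha 2.30 ± 0.58 and Aldoc 2.85 ± 0.50, whereas Egln3 had -0.81 ± 1.02, P4ha2 -0.53 ± 0.91 and Egln1 0.40 ± 0.69. Outside the score, Actb, with a slope of 2.46 ± 0.45, Igdcc4 at 4.28 ± 0.83, Dpf2, a BAF complex subunit, at 2.08 ± 0.40, Incenp, a chromosomal passenger protein, at 1.56 ± 0.33 and Cers5, a ceramide synthase, at 2.50 ± 0.55 had the lowest p in that direction. Each of them was highest in clone 17 and lowest in clone 21, the ends of the score, while Dpf2 and Incenp lie on chromosome 19, which was higher in clone 17, and Cers5 on chromosome 15, which was higher in clones 16 to 19. Against the score the lowest p were those of Ccdc73, with a slope of -4.55 ± 0.72, Dazl, a germ cell RNA-binding protein, at -4.57 ± 0.81, Adgra3 at -2.03 ± 0.38, Dsg2, a desmosomal cadherin, at -2.98 ± 0.61 and Map3k15 at -3.70 ± 0.76. All of these had an adjusted p of 0.777 by edgeR's quasi-likelihood test. In clones 24 to 26 these 10 genes overlapped clones 16 to 23, with differences of 0.02 for Actb, -0.29 for Igdcc4, -0.13 for Dpf2, -0.08 for Incenp, -0.33 for Cers5, -0.28 for Ccdc73, -0.88 for Dazl, -0.02 for Adgra3, 0.17 for Dsg2 and 0.28 for Map3k15.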

How the data were processed

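Messenger RNA of 11 clones was sequenced, 1 library per clone. The authors deposited raw read counts per gene, whole numbers for 22369 mouse Ensembl gene IDs. Reads were handled by Bowtie 0.12.7 and TopHat 1.4.0, and the builds named are hg19 and mm9, per the submitters' processing notes. The deposited table is named for protein-coding genes of Ensembl release 66 and for hg19, although its IDs are mouse IDs. For the counting step, its tool, strand setting and rule for multiply matched reads, the labels and notes give nothing. RNA came from an RNeasy kit and libraries from a TruSeq RNA kit, per the labels' protocols.

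Counts were scaled with TMM in edgeR 4.0.16 (R 4.3.3), and log2 values carry a pseudocount of 1. Genes needed a mean of at least 1 CPM over the 11 clones. The contrast of clones 24 to 26 with clones 16 to 23 chose the clones and was only described. The slope on the score within clones 16 to 23 was tested with edgeR's quasi-likelihood test, which was checked on simulated data, with DESeq2 1.42.0 as an alternative. The clones, the 34 gene lists, the score and the alternatives were chosen with earlier results of these data known, and 5 further lists were added after values were seen. Of 509 listed genes, 503 were matched in the table. Named genes are the 12 lower and 12 higher in all 3 clones with the largest difference at a mean of at least 5 CPM, the glycolysis and transport members, Pdk1 and named regulators. Of each other list they are up to 5 members apart in all 3 clones with the largest difference, or the most abundant member. Up to 5 genes in each direction with the lowest p within clones 16 to 23 complete them, and genes outside this rule were chosen after their values were seen. Some overlapping members of the hypoxia, p53, pluripotency and regulator lists are given beside these for completeness.

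Symbols, chromosomes, GC content and length came from GENCODE vM21 on GRCm38, which found symbols for 20777 IDs; no coordinates were converted from mm9. Promoter windows are RefSeq's on GRCm38.p6. The most alike libraries, clones 20 and 23, had a chi-square of 5.09 per gene, above the 1 of sampling noise, so all 11 counted as separate. Depth limits the lowest genes, and the level of 3 reads covers counting error only. Python 3.11.15, NumPy 2.4.6, pandas 2.3.3 and matplotlib 3.10.9 served for the rest. Some genes are not reported here.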

Additional observations from a re-analysis of the deposited data

Results flagged for a closer look

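In 24 of 188 genes and list medians checked (12.8%), 1 of clones 16 to 23 lay far from the other 7 by Dixon's criterion. The cause was not tested. Chance meets this criterion in about 1 of 20 groups of normally distributed values. Genes were checked as CPM and many were named for large differences, so the 12.8% cannot be set against that rate. Clone 17 was the high one for Pou2f3 (52.0 CPM), Pfkl (394), Pgam1 (161), Pdk3 (34.2), Pprc1 (389), Cpt1a (563), Igdcc4 (38.0), Dpf2 (284) and Incenp (258 CPM), and the low one for Klf4 (240.0 CPM). Of these, Pgam1, Pprc1, Cpt1a, Dpf2 and Incenp lie on chromosome 19, whose median gene was 0.54 above the median of the 11 clones in clone 17 on the log2(CPM + 1) scale.

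Clone 19 was the high one for Cited4 (27.1 CPM), Rftn1 (23.4), M1ap (24.2), Tex19.2 (3.35), Ube2l6 (23.2) and Acsl3 (98.9 CPM). It was the low one for Spry1 (8.26 CPM), Canx (636 CPM), the median of the mTORC1 regulators (-0.13) and the median of the ERK feedback genes (-0.89), both against the mean of clones 16 to 23. Clone 16 was high for Arnt (386 CPM) and Mccc1 (67.3 CPM), both on chromosome 3, whose median gene was 0.56 above that median in it. Clone 21 was high for Dazl (112 CPM) and Pycr1 (121 CPM).

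For genes lower in all 3 clones, a high single clone among the 8 enlarges the difference of means but not the count, since the count asks only that the groups do not overlap.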

How the results depend on the processing

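The 256 lower and 322 higher genes became 31 and 14 when the groups had to be at least 0.2 apart on the log2(CPM + 1) scale. The higher genes numbered 213 without TMM scaling. Leaving out 1 clone gave 275 to 526 lower and 337 to 676 higher genes, the most when 1 of clones 24 to 26 was left out, because a pair is easier to separate than 3. The 0 genes that passed the test within clones 16 to 23 became 24 with DESeq2, 1 with the glycolysis enzymes alone as score, 1 with no filter on low counts, and 0 to 1 when 1 clone was left out. DESeq2 size factors, a mean of at least 5 CPM and no filter kept both counts of non-overlapping genes within 1.5 times, as did removal of the GC and length trend and of the shifted chromosomes, which were chosen after seeing the data. Of 2220 values of 148 single genes, 2209 moved by less than the spread between clones, 11 moved by more and 0 changed sign as called genes. Of 585 values of 39 list medians, 579 moved by less and 6 by more. No paired analysis was possible because the replicate numbers are clone numbers, which the groups do not share. The limits are 1 library per clone, no batch label, 3 clones chosen by the contrast itself, and read depth for genes near 1 CPM.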
